A study of Mus musculus with 7 samples.

Results

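Transcripts of immunoglobulin heavy chain variable (Ighv) segments were examined in 7 RNA sequencing libraries of whole mouse lung. The members are the 87 genes, of 28828 in the count table, whose symbol begins with Ighv. Total RNA was extracted with Trizol, and all libraries came from the C57BL/6 strain. The wild type group held 4 libraries (named here WT2, WT3, WT4 and WT6), and the group with a knockout of the secretoglobin gene Scgb3a2 held 3 (KO3, KO4 and KO5). The labels give no age, sex, allele design or breeding of the mice, nor whether the libraries of a group are separate animals. The p-values below therefore describe the spread from library to library, which may be technical.

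An antibody heavy chain is assembled in developing B cells by V(D)J recombination, which joins 1 of many variable (V) segments to a diversity and a joining segment in front of the constant regions. The V segment encodes most of the antigen-binding domain, including its first and second hypervariable loops, and each B cell clone keeps the V segment it assembled. Antibody-secreting plasma cells hold far more of this transcript than resting B cells do. In bulk tissue, the count of a V segment therefore adds up all B and plasma cells that carry it, and more cells and more RNA per cell cannot be told apart.

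The libraries held 13071262 to 16480006 counts. Scgb3a2, a product of airway secretory cells and the targeted gene, had 2636 to 4204 counts in wild type and 19 to 37 counts in knockout libraries. All 10 lung epithelial and endothelial markers of a fixed list were present, with a summed level of 20541 to 33696 CPM (counts per 1000000, with library sizes scaled by edgeR's TMM method). WT6 (23773 CPM) and KO5 (20541 CPM) lay below the other 5 libraries (28380 to 33696 CPM) in this sum. The summed level, the fold changes, the called segments, the segment number, the evenness and the Ighv1 share are given with and without this pair.

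The germline sequences of 3 segments are shown because they were the only members that passed the test between genotypes. Each line is the last 150 bases of the coding sequence in GENCODE M21 (mouse genome build GRCm38, or mm10), 5′ to 3′ on the minus strand of chromosome 12. Capitals mark TATTACTGT or TATTTCTGT, the stretch that ends with the conserved cysteine codon before the third hypervariable loop.
Ighv5-16: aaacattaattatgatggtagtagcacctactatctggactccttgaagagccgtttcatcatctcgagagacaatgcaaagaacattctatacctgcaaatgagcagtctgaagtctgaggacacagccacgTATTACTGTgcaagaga
Ighv1-22: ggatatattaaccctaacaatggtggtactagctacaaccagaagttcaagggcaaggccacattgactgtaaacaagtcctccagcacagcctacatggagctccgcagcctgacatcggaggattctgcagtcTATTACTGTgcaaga
Ighv1-80: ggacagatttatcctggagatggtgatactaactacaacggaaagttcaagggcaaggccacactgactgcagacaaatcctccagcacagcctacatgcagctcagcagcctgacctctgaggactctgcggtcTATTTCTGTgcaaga
These stretches lie at chr12:113838526-113838675, chr12:114746273-114746422 and chr12:115912344-115912493, in the V exon of each gene. TATTACTGT occurred in 50 of the 87 members (57.5%) and in 64 of the 113 annotated V genes that are not pseudogenes (56.6%), and TATTTCTGT in 19 members (21.8%) and 20 of the 113 genes (17.7%). Neither occurred on the reverse strand. The segments share 84.3% of bases between Ighv1-22 and Ighv1-80, and 60.6% and 61.2% between Ighv5-16 and these.

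Summed over all members, Ighv counts were 225, 228, 175 and 327 in WT2, WT3, WT4 and WT6, and 641, 2220 and 6137 in KO3, KO4 and KO5. In CPM this was 13.5, 14.5, 12.9 and 23.0 in wild type, and 43.2, 141 and 444 in knockout libraries. Every knockout library lay above every wild type library, and the knockout libraries differed among themselves by more than the wild type libraries did. The group means were 15.99 ± 4.69 CPM (SD, n = 4) and 209 ± 209 CPM (SD, n = 3), a ratio of 13.1. On the log2 scale the difference of group means was 3.16, and leaving out WT6 and KO5 gave 2.52 over the other 5 libraries. The ratio of mean CPM was 5.76 without KO5, 15.2 without KO4 and 18.3 without KO3. These sums are a description with no test, because the group of genes was chosen with earlier results of these data known.

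Other antibody transcripts were measured in the same libraries. The 8 heavy chain constant regions, which follow the V segment in the mature transcript, reached 63.3 to 122 CPM in the wild type libraries, 196 CPM in KO3, 627 CPM in KO4 and 1730 CPM in KO5. Igha, the constant region of the mucosal antibody IgA, had 38.1 to 43.4 CPM in wild type and 122, 293 and 892 CPM in the knockout libraries. The wild type and knockout ranges were also apart for Ighg1, Ighg2b and Ighg2c, which encode IgG heavy chains. For Ighg1 this rests on low levels in KO3, at 0.61 CPM against 0.19 to 0.30 CPM in wild type, with 63.8 CPM in KO4 and 94.3 CPM in KO5. The ranges overlapped for Ighm, the constant region of IgM, with 16.6 to 53.9 CPM in wild type and 31.7, 48.3 and 117 CPM in knockout libraries. They also overlapped for Ighd, Ighg3 and Ighe. For each 100 constant region counts there were 14.7 to 20.4 Ighv counts in wild type and 22.0, 22.5 and 25.6 in knockout libraries, and these ranges did not overlap. Kappa light chain variable segments (Igkv), the partners of Ighv in the antibody, had 9.53 to 18.95 CPM across wild type and 42.6, 157 and 396 CPM across knockout libraries. For each 100 Igkv counts there were 106 to 136 Ighv counts in wild type and 90.0 to 112 in knockout libraries, and these ranges overlapped.

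**Figure D1:**
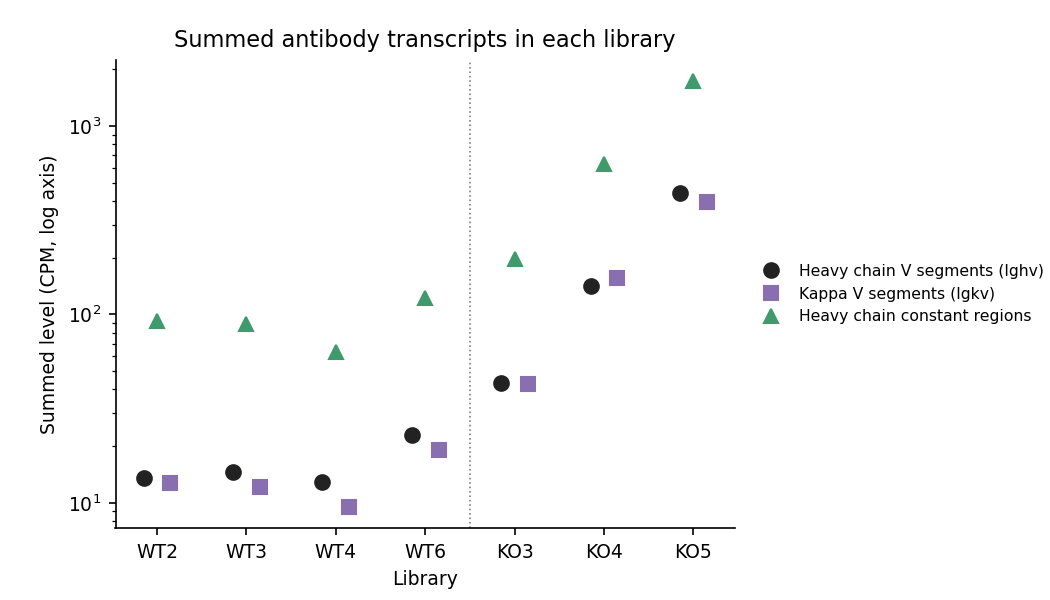
Summed level of heavy chain V segments (circles), kappa V segments (squares) and heavy chain constant regions (triangles) in each library, in CPM on a log axis. The 3 sums lie higher in the knockout libraries on the right of the dotted line than in the wild type libraries, with KO3 lowest and KO5 highest among the knockout libraries.

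Of the 87 members, 85 had at least 1 count and 25 had a count in all 7 libraries. Only 19 passed the filter on low counts, which a segment could pass through the knockout libraries alone. Of these 19, 3 rose in knockout lung and none fell at an adjusted p under 0.05 (edgeR's quasi-likelihood test, Benjamini-Hochberg adjustment over 19832 genes), while 0.0252% of all genes tested rose and 0.0101% fell. The 3 segments were Ighv5-16, Ighv1-22 and Ighv1-80. An unadjusted p under 0.05 was found for 14 of the 19, against 2.87% of all genes. All 19 log2 fold changes were positive, from 0.50 to 6.30 with a median of 3.04, against 48.0% positive values and a median of -0.01 over all genes tested. Because of the filter, the 19 do not stand for all members. Without the filter, the median over the 85 members with a count was 2.64, and the count of called members was 3 of these 85, against 0.0248% of all genes with a count. Without WT6 and KO5 the median was 2.43.

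Ighv5-16 had counts of 1, 3, 2 and 3 in the wild type libraries, 31 in KO3, 56 in KO4 and 53 in KO5. It was even within each genotype, and the groups were far apart, at 0.15 ± 0.067 CPM (SD, n = 4) and 3.16 ± 0.94 CPM (SD, n = 3). The log2 fold change was 4.32 ± 0.42 (SE) with edgeR's adjusted p = 0.00245, and the adjusted p stayed between 4.08e-09 and 0.0331 over all alternatives tried. Ighv5-16 (chr12:113838526-113839010, minus strand) has no close relative, since its nearest annotated copy, Ighv5-12, shares 85.8% of its bases.

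Ighv1-22 (chr12:114746273-114746706, minus strand) had counts of 8, 6, 3 and 6 in wild type and of 43, 32 and 41 in knockout libraries. Ighv1-80 (chr12:115912344-115912776, minus strand) had counts of 5, 2, 5 and 5, and of 39, 30 and 36. In both, each knockout library held several times more counts than any wild type library, and the 3 knockout libraries had nearly the same level. The log2 fold changes were 2.76 ± 0.34 for Ighv1-22 and 3.03 ± 0.38 for Ighv1-80 (SE), each with edgeR's adjusted p = 0.0172. Both calls were lost without WT2 (adjusted p = 0.113 and 0.140), without WT3 (0.134 and 0.0951) and without WT4 (0.0752 for each). Their nearest copies are Ighv1-26 (96.6% identity) and Ighv1-82 (95.4%), so that some reads could have been assigned between copies.

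As shares of the Ighv counts, the called segments did not stand out in every knockout library. Ighv1-22 made up 1.71% to 3.56% of Ighv counts in wild type, 6.71% in KO3, 1.44% in KO4 and 0.67% in KO5. Ighv1-80 made up 0.88% to 2.86% in wild type and 6.08%, 1.35% and 0.59% in knockout libraries. Both lay above the wild type range in KO3 and below it in KO5, and Ighv1-22 lay below it in KO4 as well. Ighv5-16 had 0.44% to 1.32% in wild type and 4.84%, 2.52% and 0.86% in knockout libraries.

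Leaving out a library or changing the tool moved the count of called segments. It was 1 (Ighv5-16) without WT2, WT3 or WT4, where 0.00516%, 0.00514% and 0.00508% of all genes rose. It was 10 of 30 tested members without KO3 (0.192% of all genes rose), 5 of 23 without KO4 (0.0248%), 4 of 21 without KO5 (0.0297%) and 3 of 16 without WT6 (0.0256%). DESeq2 called 14 of the 41 members to which it gave an adjusted p, all higher (0.244% of the genes with such a value rose). Adding a covariate that marks WT6 and KO5 gave 6 of 19 (0.111%), and the 5 libraries without this pair gave 5 of 18 (0.0501%). With library totals in place of TMM the same 3 segments were called (0.0151%), and a block for the replicate numbers gave 13 of 19 (0.534%) with 1 residual degree of freedom. In every one of these fits the members called were higher in knockout lung, and Ighv5-16 was among them.

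**Figure D2:**
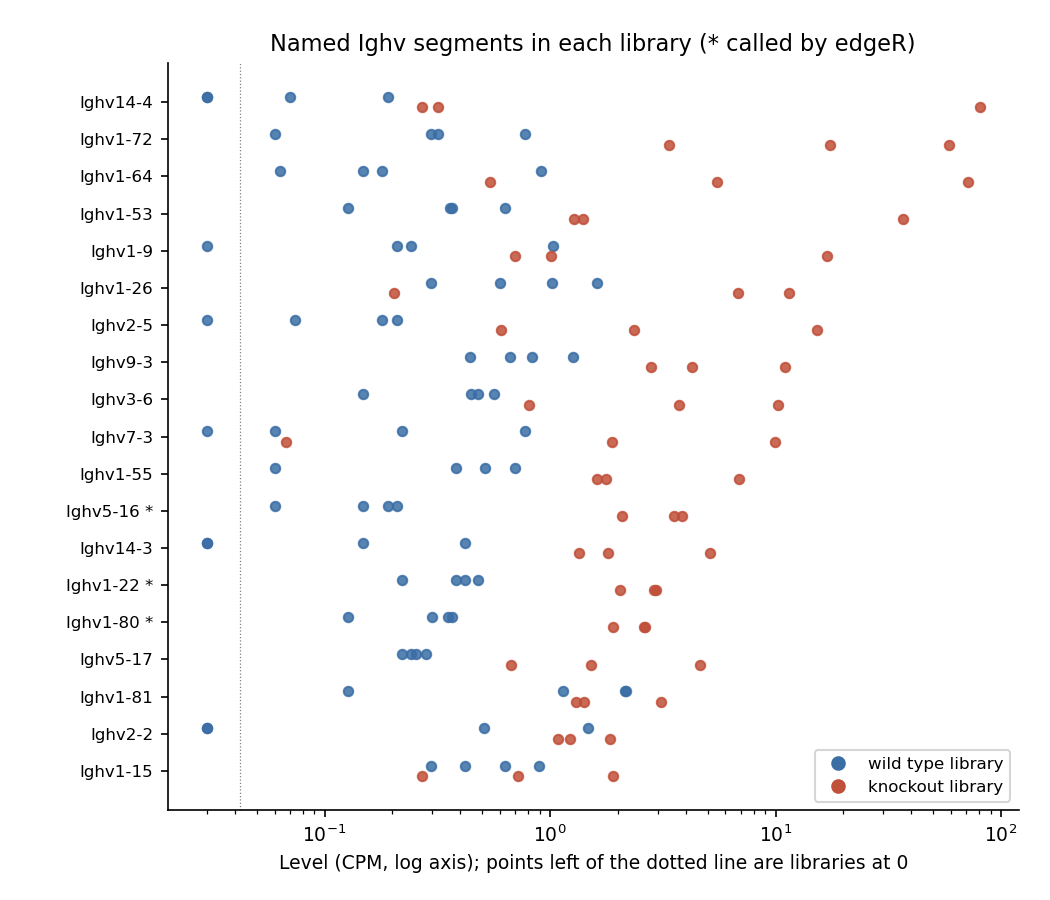
Level of each of the 19 named segments in each library, in CPM on a log axis, with wild type libraries in blue and knockout libraries in red. The called segments (asterisks) have tightly grouped knockout values, while Ighv14-4, Ighv1-64 and Ighv1-53 have 1 knockout library, KO5, far to the right of the others. The test favours even segments and a ranking by mean favours uneven ones, so this contrast follows in part from how they were chosen.

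The segments with the highest mean level in knockout lung were others, and they were uneven between the knockout libraries. A ranking by mean favours segments that are high in 1 library. Annotated sequences of the members are 347 to 394 bases long, so that their CPM values can be compared with little effect of length. Ighv14-4 had counts of 0, 3, 0 and 1 in wild type and of 4, 5 and 1115 in KO3, KO4 and KO5. It was the most abundant segment of KO5 and close to the wild type level in KO3 and KO4, and it did not pass the filter on low counts. Ighv1-64 had counts of 3, 1, 2 and 13, and of 8, 87 and 984 (log2 fold change 6.30 ± 1.92 SE, edgeR's adjusted p = 0.99985). Its groups overlapped, since KO3 lay below WT6. Ighv1-53 had counts of 6, 2, 5 and 9, and of 19, 22 and 508 (5.12 ± 1.64, edgeR's adjusted p = 0.99985), and Ighv1-9 had 4, 0, 14 and 3, and 15, 11 and 234.

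Ighv1-72, the segment of the classical C57BL/6 antibodies to the hapten nitrophenyl, had the most counts of all members. Its counts were 1, 5, 4 and 11 in wild type and 50, 276 and 811 in KO3, KO4 and KO5. It was high in all 3 knockout libraries, without overlap with wild type, and made up 7.80%, 12.4% and 13.2% of their Ighv counts against 0.44% to 3.36% in wild type libraries. The log2 fold change was 6.20 ± 1.25 (SE), and edgeR's adjusted p = 0.99985 did not pass. With DESeq2, without KO3 and with the replicate block it did pass.

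Single libraries supplied most counts of many segments. Of the 46 members with at least 30 knockout counts, 16 had over 80% of these in 1 library, which was KO5 for 11, KO4 for 5 and KO3 for none. Beside Ighv14-4 these included Ighv9-4 (123 counts in KO5, 0 in KO3 and KO4), Ighv1-75 (155 in KO5, 2 and 0 in KO3 and KO4), Ighv1-50 (140 in KO4, 0 and 10 in KO3 and KO5) and Ighv6-3 (125 in KO4, 3 and 8). KO5 also has the most Ighv counts of the 3 libraries, so this count leans towards it.

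Across all members, 79 had a higher mean CPM in knockout lung and 6 a lower one, while 49.5% of all genes with a count were higher. All knockout libraries lay above all wild type libraries for 23 of the 87 members, against 2.33% of all genes with a count, and for 10 of the 19 that passed the filter, against 2.11% of the genes tested. No tested member lay below in all knockout libraries, against 1.61% of the genes tested. Members could pass the filter through the knockout libraries alone, so neither count among the tested members is a result about them. The 6 members with a lower mean CPM in knockout lung had 6 to 13 counts in all. Among them, Ighv15-2 had 6, 1, 1 and 1 counts in wild type and 0 in each knockout library, a level at which 3 counts (0.19 to 0.22 CPM per library) are the limit that a count of 0 allows. In the opposite direction, Ighv1-20 had 0 counts in all wild type libraries and 4, 2 and 69 in knockout libraries, at least 33.8-fold higher against 3 counts over the wild type group.

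The wild type libraries were led by other segments. Ighv1-81 had the most counts in WT2 (19), WT4 (29) and WT6 (31) and 2 counts in WT3, with 21, 49 and 18 counts in the knockout libraries (log2 fold change 0.50 ± 0.63 SE, edgeR's adjusted p = 0.99985). Its groups overlapped in level, while its share of Ighv counts was 8.44%, 0.88%, 16.6% and 9.48% in wild type and 3.28%, 2.21% and 0.29% in knockout libraries. Ighv1-26 led WT3 with 16 counts and had 10, 4 and 23 in the other wild type libraries, 3 in KO3, 107 in KO4 and 159 in KO5 (edgeR's adjusted p = 0.99985). Ighv9-3 had 11, 13, 6 and 18 counts in wild type and led KO3 with 63 counts, with 44 and 153 in KO4 and KO5 (log2 fold change 2.90 ± 0.50 SE, edgeR's adjusted p = 0.236). Its groups did not overlap. Ighv2-2 and Ighv1-15 also ranked among the first 5 wild type segments, with 0 to 21 and 4 to 14 counts per wild type library, and both overlapped with the knockout libraries.

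Of the other segments with the smallest p, Ighv14-3 (log2 fold change 4.15, edgeR's adjusted p = 0.432), Ighv5-17 (3.13, 0.442), Ighv1-55 (3.04, 0.619) and Ighv3-6 (3.54, 0.858) did not pass. The groups did not overlap in any of the 4, but a choice by p favours this. Ighv5-17 was the most even of these in wild type lung, at 0.25 ± 0.025 CPM (SD, n = 4), and at 0.67 CPM in KO3, 1.52 CPM in KO4 and 4.63 CPM in KO5. Ighv7-3 had 1, 0, 3 and 11 counts in wild type and 1, 156 and 26 in knockout libraries. Ighv2-5 had 3, 0, 1 and 3 counts, and 9, 37 and 211, and did not pass the filter.

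How many segments a library used was compared next. At full depth, 62, 61, 45 and 65 segments had a count in WT2, WT3, WT4 and WT6, and 67, 70 and 80 in KO3, KO4 and KO5. Each knockout library held more Ighv counts, which by itself reveals more segments. When every library was thinned to 175 Ighv counts, the total of WT4, the expected number was 56.9, 55.7, 45.0 and 52.0 in wild type and 46.1, 40.2 and 36.0 in knockout libraries. At equal depth the knockout libraries thus held fewer segments, with means of 52.4 ± 5.37 (SD, n = 4) and 40.8 ± 5.07 (SD, n = 3), and only WT4 and KO3 were out of order. Without WT6 and KO5 the difference of means was -9.41 segments, against -11.6 with them.

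Evenness pointed the same way. The effective number of segments, an inverse Simpson index that gives the number of equally used segments with the same concentration, was 40.8, 39.6, 21.1 and 28.9 in wild type and 25.6, 20.2 and 11.03 in knockout libraries. WT4, where Ighv1-81 alone held 16.6% of the counts (95% exact binomial interval 11.4% to 22.9%), lay below KO3. The means were 32.6 ± 9.39 (SD, n = 4) and 19.0 ± 7.38 (SD, n = 3). With the most abundant segment of each library left out, the values were 47.3, 41.96, 33.4 and 31.6 in wild type and 27.6, 22.6 and 11.6 in knockout libraries, and the groups no longer overlapped. The leading 50% of the Ighv counts came from 14, 13, 9 and 10 segments in wild type and from 10, 7 and 4 segments in knockout libraries. In KO5 the leading 3, Ighv14-4, Ighv1-64 and Ighv1-72, held 18.2%, 16.03% and 13.2%. Without WT6 and KO5 the difference of means was -10.9, against -13.6 with them. From KO3 to KO4 to KO5 the effective number was lower while the summed level was higher.

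**Figure D3:**
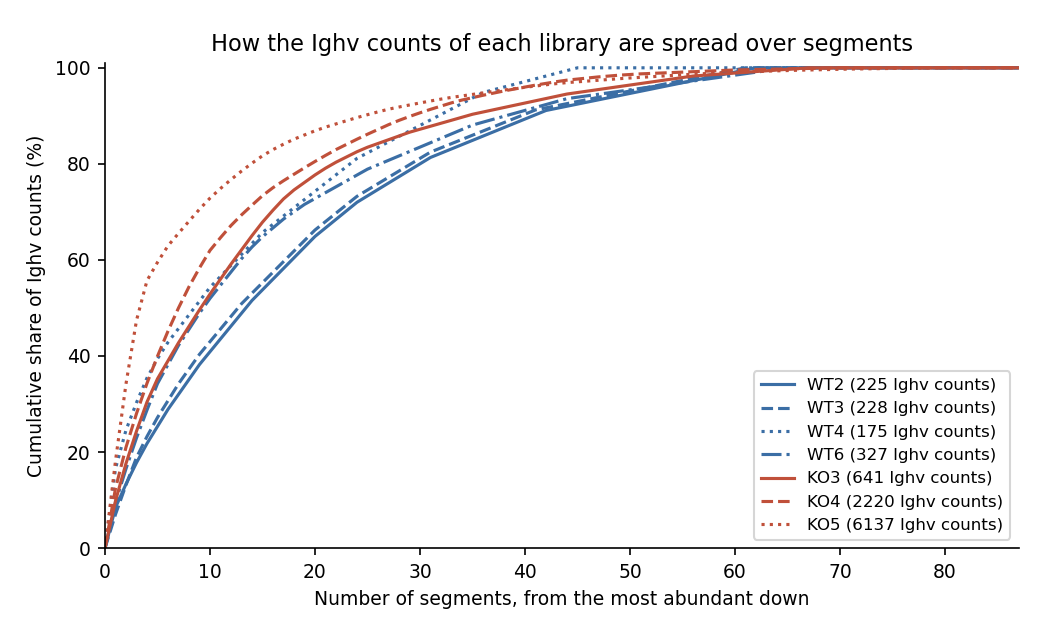
Cumulative share of the Ighv counts of each library (percent) against the number of segments, from the most abundant down, with wild type libraries in blue and knockout libraries in red. The curve of KO5 reaches 59.5% with 5 segments, while the wild type curves reach 25.3% to 39.4%, and the curve of KO3 runs among the wild type curves.

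Libraries also differed in which segments they used. Morisita's index, which is 0 for no shared use and about 1 for the same use and allows for unequal depth, was 0.42 to 0.81 over the 6 pairs of wild type libraries (median 0.72). It was 0.37 to 0.49 over the 3 pairs of knockout libraries and 0.22 to 0.60 over the 12 mixed pairs. Of the wild type pairs, 5 lay above every knockout pair, and WT3 with WT4 (0.42) lay among them. The 4 lowest values were those of KO5 with each wild type library. Across segments, Spearman's rho between counts was 0.52 to 0.54 for the knockout pairs, which have more counts, and 0.23 to 0.49 for the wild type pairs.

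By family, the number before the hyphen in the symbol, Ighv1 was the largest. Its 43 segments held 52.4%, 55.7%, 69.1% and 60.2% of the Ighv counts in wild type and 52.4%, 66.1% and 60.2% in knockout libraries. The means were 59.4% ± 7.25 (SD, n = 4) and 59.6% ± 6.87 (SD, n = 3), a difference below the spread between libraries. It was 0.18 percentage points without WT6 and KO5, a setting added after the data were seen. With the most abundant segment of each library left out, the difference was 9.45 percentage points, and the groups still overlapped. The spread with all segments was 7.10. The segment left out was an Ighv1 member in every wild type library and in KO4, but Ighv9-3 in KO3 and Ighv14-4 in KO5. Leaving it out by itself lowers the Ighv1 share in the former and raises it in the latter. The 9.45 points therefore do not measure a difference in Ighv1 use. In CPM, the Ighv1 sum was 9.49 ± 2.99 in wild type and 128 ± 126 in knockout lung, a ratio of 13.4 that was 6.11 without KO5. Summed CPM did not overlap between genotypes for Ighv1, Ighv5, Ighv9 and Ighv14, which were higher in every knockout library, and for Ighv15, whose 1 member is Ighv15-2. It overlapped for the other 10 families. Ratios of mean CPM were 11.1 for Ighv5, 10.1 for Ighv9, 7.79 for Ighv2 and 8.45 for Ighv3, and without KO5 they were 5.75, 4.14, 2.98 and 4.19.

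The Ighv14 family had the highest ratio, 84.3, with 0.37 ± 0.15 CPM in wild type (SD, n = 4) and 31.6 ± 45.8 CPM in knockout lung (SD, n = 3). The knockout mean came mostly from KO5 (84.4 CPM, against 4.72 in KO3 and 5.53 in KO4), and without KO5 the ratio was 13.7. Its share of Ighv counts was 4.44%, 2.19%, 2.29% and 1.22% in wild type and 10.9%, 3.92% and 19.0% in KO3, KO4 and KO5, and KO4 lay within the wild type range. The leading member differed between KO4, with Ighv14-3 (81 counts), and KO5, with Ighv14-4 (1115). In KO3 no member clearly led, since Ighv14-1 (24), Ighv14-2 (22) and Ighv14-3 (20) had similar counts. The sequences of the 4 members are shown because reads had to be told apart by few bases. Each line holds 150 bases of the coding sequence from base 130 on, and capitals mark bases that differ from Ighv14-4.
Ighv14-4: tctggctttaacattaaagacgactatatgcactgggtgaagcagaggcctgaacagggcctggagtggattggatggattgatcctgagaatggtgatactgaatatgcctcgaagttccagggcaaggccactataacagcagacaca
Ighv14-1: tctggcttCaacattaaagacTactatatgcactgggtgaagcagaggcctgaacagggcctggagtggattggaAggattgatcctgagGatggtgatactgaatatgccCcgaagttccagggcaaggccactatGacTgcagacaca
Ighv14-2: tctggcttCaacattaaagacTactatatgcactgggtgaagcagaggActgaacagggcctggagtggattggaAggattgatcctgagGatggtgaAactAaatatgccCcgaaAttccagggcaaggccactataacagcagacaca
Ighv14-3: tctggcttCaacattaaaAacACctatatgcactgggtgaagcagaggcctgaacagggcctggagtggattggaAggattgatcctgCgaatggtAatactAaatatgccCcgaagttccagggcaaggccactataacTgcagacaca
They lie at chr12:114176510-114176659, chr12:113932025-113932174, chr12:113994541-113994690 and chr12:114059917-114060066 on the minus strand. Over the 351 bases of the coding sequence, Ighv14-1, Ighv14-2 and Ighv14-3 differ from Ighv14-4 at 9, 15 and 17 positions.

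**Figure D4:**
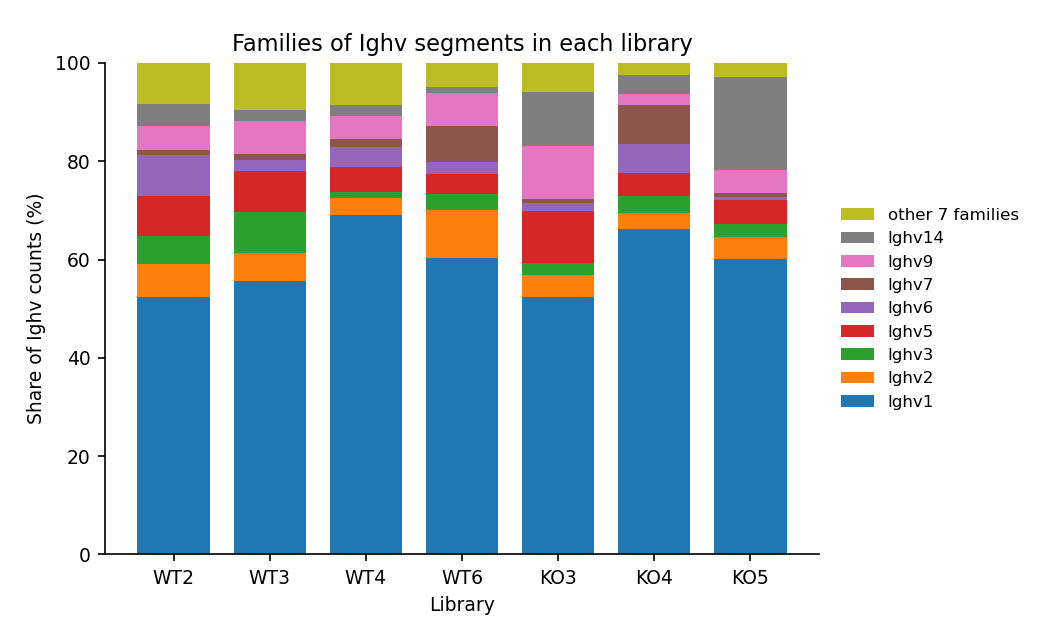
Share of Ighv counts (percent of each library) by family, stacked, for the 7 libraries, with 7 further families drawn together. Ighv1 in blue takes 52.4% to 69.1% in all libraries, and Ighv14 in grey is widest in KO3 and KO5.

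Near-identical copies limit how single members can be read. Of the 87 members, 9 have an annotated copy with at least 98% of bases in common and 46 one with at least 95%. The most abundant member, Ighv1-72, has such a copy in Ighv1-62-3 (99.1%), which had 7 counts, all of them in KO5. The lines show 150 bases from coding base 110 on of Ighv1-72, of this copy and of its abundant relatives Ighv1-64 and Ighv1-53 (95.4% each), with capitals where a base differs from Ighv1-72.
Ighv1-72: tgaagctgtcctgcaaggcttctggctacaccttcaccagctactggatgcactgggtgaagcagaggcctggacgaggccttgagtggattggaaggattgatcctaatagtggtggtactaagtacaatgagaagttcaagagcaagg
Ighv1-62-3: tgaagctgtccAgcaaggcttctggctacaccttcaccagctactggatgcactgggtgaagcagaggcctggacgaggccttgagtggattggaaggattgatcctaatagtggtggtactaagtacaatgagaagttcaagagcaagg
Ighv1-64: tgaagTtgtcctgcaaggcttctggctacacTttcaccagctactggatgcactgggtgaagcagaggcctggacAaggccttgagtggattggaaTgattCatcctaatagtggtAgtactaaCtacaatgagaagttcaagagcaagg
Ighv1-53: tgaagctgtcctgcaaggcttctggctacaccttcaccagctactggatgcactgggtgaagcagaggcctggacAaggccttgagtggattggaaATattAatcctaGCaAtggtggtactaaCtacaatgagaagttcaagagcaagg
They lie at chr12:115758076-115758225, chr12:115461091-115461240, chr12:115507637-115507786 and chr12:115158495-115158644 on the minus strand. Counted from 1 at the first coding base, Ighv1-62-3 differs from Ighv1-72 by C56T, T121A and T342C only, which leaves 220 identical bases in a row. Ighv1-64 and Ighv1-53 each differ from Ighv1-72 at 16 positions. Antibody genes also carry somatic mutations and joins that the germline sequence lacks, and the labels do not state how reads with several possible origins were counted. The part of either in the counts was not tested.

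The segments lie on the minus strand of chromosome 12, upstream of the joining segment Ighj1, at distances of 149 to 2570 kb. Split into 3 groups of 29 by distance, the middle group (858 to 1638 kb, from Ighv3-6 to Ighv8-5) held 42.7%, 47.8%, 42.9% and 35.5% of Ighv counts in wild type and 21.8%, 28.3% and 17.3% in knockout libraries. Its share was lower in every knockout library than in any wild type library, at 42.2% ± 5.08 (SD, n = 4) and 22.5% ± 5.54 (SD, n = 3). Its summed CPM was still 6.37 times higher in knockout lung, against 15.3 times in the group nearest to Ighj1, which holds no Ighv1 member, and 19.9 times in the farthest group, where 27 of 29 are Ighv1. Without KO5 these ratios were 3.74 for the middle, 5.99 for the nearest and 8.16 for the farthest group. The nearest group held 17.1% to 29.4% of Ighv counts in wild type and 41.2%, 23.1% and 32.1% in KO3, KO4 and KO5, and the farthest 24.6% to 40% and 37.0%, 48.6% and 50.6%, and both overlapped. The abundant segments Ighv1-72, Ighv1-64 and Ighv1-53 lie in the farthest group and Ighv14-4 in the nearest. The split was made after the totals were known and has no test.

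**Figure D5:**
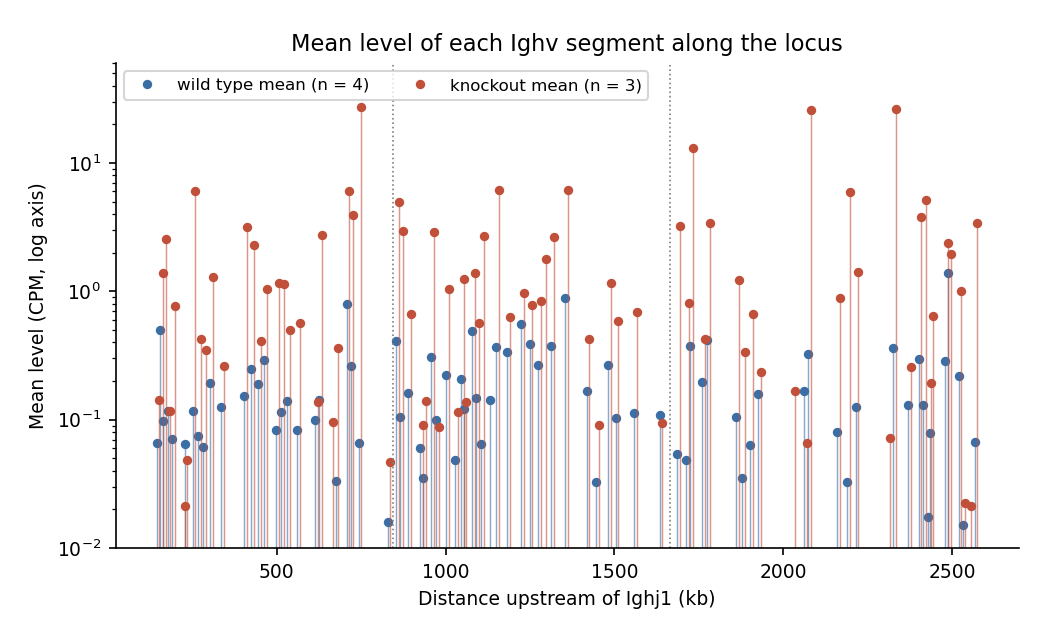
Mean CPM of each segment on a log axis against its distance upstream of Ighj1 in kb, with wild type means in blue (n = 4), knockout means in red (n = 3) and dotted lines between the 3 groups of 29 segments. Segments at a mean of 0 are not drawn. Knockout means over 10 CPM belong to Ighv14-4 in the nearest group and to Ighv1-53, Ighv1-64 and Ighv1-72 in the farthest.

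Markers of the cells that carry these transcripts were higher in part of the same libraries. For 16 B cell markers, none of which passed the test, all 16 log2 fold changes were positive (median 1.33), and the summed level was 75.5 to 138 CPM in wild type, 101.5 CPM in KO3, 202 CPM in KO4 and 387 CPM in KO5. KO3 lay within the wild type range here, while its Ighv sum lay above it. Of 12 plasma cell markers, 11 were tested, 9 of them with a positive value and none called (median 0.90). Their sum was 360 to 415 CPM in wild type and 395, 468 and 786 CPM in knockout libraries. Jchain, which links antibody molecules into polymers, had 137, 137, 77 and 174 counts in wild type and 400, 1146 and 4324 in knockout libraries, the largest log2 fold change of this list (3.97). Sdc1, a surface proteoglycan of plasma and epithelial cells, and Xbp1, a regulator of secretion, supply most of the plasma cell sum in every library but KO5. In KO5, Sdc1 had 164 CPM, Xbp1 194 CPM and Jchain 312 CPM. The log2 fold changes of Sdc1 and Xbp1 were -0.04 and 0.02. The values were 0.06 for Prdm1, a regulator of plasma cell identity, and -0.11 for Fkbp11. All 10 T cell markers had positive values and none was called, with sums of 22.5 to 32.8 CPM and 34.8, 47.4 and 67.9 CPM. Of 7 pre-B cell markers, 3 were in the table and 2 were tested, with none called. Their sums were 15.9 to 23.2 CPM in wild type and 24.0 to 32.0 CPM in knockout libraries. Most of this came from Il7r, at 11.8 to 17.7 CPM in wild type and 19.2 to 24.3 CPM in knockout libraries. Vpreb3 overlapped, at 3.99 to 5.76 CPM and 4.45 to 7.59 CPM, and Dntt was near 0. Vpreb1, Vpreb2, Igll1 and Rag1 were not in the table, so the sum does not measure pre-B cells. Mesothelial markers, none of 7 called, had sums of 196 to 318 CPM in wild type and 258 to 307 CPM in knockout libraries. The sum hides differences between its members. Msln had 55.2 CPM in WT6 and 82.0 CPM in KO5, against 12.3 to 29.1 CPM in the other libraries. Upk3b had 42.3 and 33.9 CPM against 8.70 to 16.7 CPM, and Lrrn4 16.2 and 9.54 CPM against 2.36 to 6.01 CPM. Wt1 and Gpm6a were also highest in WT6 and KO5, while Upk1b and Krt19 were not. None of these markers was at 0 in all libraries, and their part in the Ighv result was not tested.

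The machinery that assembles and edits antigen receptors was listed as well. Of its 18 genes, 17 were in the table and 14 were tested, with no call in either direction, 4 positive values and a median log2 fold change of -0.05. The mismatch repair gene Msh6 had 29.9 ± 1.35 and 35.8 ± 2.15 CPM in wild type (SD, n = 4) and knockout lung (SD, n = 3), and the end-joining gene Xrcc4 had 11.4 ± 0.64 and 8.69 ± 1.29 CPM, and neither passed the test. Rag2, a subunit of the recombinase that acts on V segments, had 1, 0, 0 and 0 counts in wild type and 1, 0 and 3 in knockout libraries. Dntt, which adds bases at the joins, had 0 to 2 counts in every library. Among 7 germinal centre genes, 5 were tested and none was called, with a median of -0.01.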

How the data were processed

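Read counts per gene for 7 libraries were used as the authors deposited them, as whole numbers that are not normalized. STAR, DESeq2 and the build mm10 appear in the submitters' processing notes. How reads were counted, with which annotation and whether by strand, is not stated in the sources used here. The 87 members were taken by symbol, and all 87 matched the GENCODE M21 annotation of GRCm38 (86 V genes and 1 pseudogene), which gave positions and sequences. Of its 185 annotated Ighv entries the others were not analysed here.

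The whole table was fitted with edgeR 4.0.16 in R 4.3.3 (filterByExpr by genotype, TMM, robust quasi-likelihood test, genotype as the only term, two-sided). Standard errors are the log2 fold change over the square root of F. The procedure was tested on simulated data. DESeq2 1.42.0, library totals, no filter, left-out libraries, the replicate block and WT6 with KO5 were alternatives. Thinning used the exact expectation. Identity is 1 minus edit distance over the longer sequence. Intervals are 95% and, like the limit of 3 counts, cover counting error only. The closest pair of libraries within a group differed far beyond sampling noise (chi-square over degrees of freedom 4.30), so each library was counted once.

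Members, lists and tests were chosen with earlier results of these data known. Named segments were the called ones, the leading one of each library, the top 5 by mean CPM in each genotype, the 10 with the smallest p and the highest of each family tested. Ighv1-20, Ighv1-50, Ighv1-62-3, Ighv1-75, Ighv6-3, Ighv9-4, Ighv14-1, Ighv14-2, Ighv15-2, Sdc1, Xbp1, Prdm1, Fkbp11, Rag2 and Dntt were named after their values were seen. So were Pou2af1, Mzb1, Eaf2, Irf4, Derl3, Tnfrsf13b, Il7r and Vpreb3. The same holds for the mesothelial markers Msln, Upk3b, Upk1b, Wt1, Lrrn4, Gpm6a and Krt19.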

Additional observations from a re-analysis of the deposited data

Results flagged for a closer look

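Among 41 values checked in the 4 wild type libraries, 7 had 1 library far from the other 3. The limit used gives about 1 in 20 by chance for independent, normally distributed values. Shares from few counts are not such values, and with 3 libraries at 0, as for Ighv12 and Ighv13, any count in the other passes. The 7 are therefore not set against that rate. The summed Ighv level of WT6 (23.0 CPM) lay above the other wild type libraries (12.9 to 14.5 CPM), as did Ighv1-64 (0.91 CPM against 0.064 to 0.18 CPM). WT6 also stood out in the share of Ighv7 (7.34% of Ighv counts against 0.89% to 1.71%) and of Ighv12 (0.61% against 0% in the others). WT4 had a high share of Ighv8 (6.86% against 0.89% to 1.53%). WT2 had high shares of Ighv13 (1.78% against 0%) and of Ighv15 (2.67% against 0.31% to 0.57%). The Ighv12, Ighv13 and Ighv15 shares rest on 2, 4 and 6 counts in the library named.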

How the results depend on the processing

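The number of members called was 3 with library totals and 3 of 85 without the filter on low counts. It was 14 of 41 with DESeq2, 6 with a term for WT6 and KO5 and 5 without this pair, and from 1 to 10 when single libraries were left out. The numbers 3 and 4 in the titles occur in both genotypes, and with the replicate block 13 of 19 tested members were called (0.534% of all genes rose). Nothing in the labels says that a number pairs libraries, and deviations from the group means correlated at 0.24 and 0.20 for equal numbers and at 0.22 and 0.24 for unequal ones. With single libraries left out, the median log2 fold change ranged from 2.11 (without KO5) to 3.89 (without KO3), the log2 difference of the Ighv sum ranged from 2.33 to 4.01, the difference in effective number from -17.5 to -9.67, and that in segments at equal depth from -14.3 to -9.26. Counting segments with at least 3 counts at full depth turned this difference to 25.1, since deeper pools show more segments, and with 17 counts per library it was -1.82. The Ighv1 share differed by 0.19 percentage points, by -3.09 to 3.77 with 1 library left out, and by 9.45 without the most abundant segment of each library. That segment was an Ighv1 member in every library but KO3 and KO5, which by itself widens this difference. Of 211 alternative values with an adjusted p for 17 tested named segments, 178 kept direction and side of the threshold, 25 came to pass, 6 ceased to pass (Ighv1-22 and Ighv1-80 without WT2, WT3 or WT4) and 2 changed sign without KO4 (Ighv1-81 at -0.022 and Ighv1-15 at -0.19). Without 1 library Ighv1-81 reached 0.81 and Ighv1-15 1.22. The cause of these changes was not tested. The wild type libraries held 175 to 327 Ighv counts, which limits the precision of single shares there.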
